A study of Homo sapiens with 7 samples.

Results

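Lone promoter-sized regions are stretches of H3K4me3 about as wide as the mark around a single active gene start, with no other region of that size nearby. Of the 30840 regions the deposited table lists, 9028 lay on autosomes and measured at least 2000 but under 4000 bp. The lone ones were the 2389 of these whose gap to the nearest other region of 2000 bp or more on the same chromosome was at least 100 kb, which is 26.5% of the promoter-sized autosomal regions and 7.75% of all listed regions. The other 6639, with a nearer neighbour, are called crowded here. The choice used the width and position of the listed regions and not their RPM. Their width is that of a called stretch of the mark, so the choice can depend on how much mark the libraries held. A weak region may have been listed, or reached 2000 bp, through the library where it was highest, which was not tested. No hg19 gene annotation was used, so how many of the regions hold a gene start was not counted. For 87 of them the gene is named from background knowledge of hg19 positions, and these names are not a result of the data.

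H3K4me3 (histone H3 carrying 3 methyl groups on lysine 4) is deposited by methyltransferase complexes at active gene starts, most strongly at those rich in CpG. KDM5A is a demethylase that removes it, and its ARID domain is known to bind the DNA letters CCGCCC. In differentiated and cancer cells many developmental genes stand alone in wide gene-poor stretches of the genome, and their CpG-rich starts often carry a low level of H3K4me3 beside the repressive mark H3K27me3. Widely expressed genes are mostly found in gene-dense stretches and carry strong H3K4me3.

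The cells were HCT116, an established human colon cancer line, with both copies of KDM5A knocked out (KDM5A-/-) and kept under G418 selection. All libraries compared here came from this knockout line and none from parental HCT116. The 3 groups differed in what was transfected, which was the vector alone (empty vector), the vector with wild-type KDM5A or the same with a mutant KDM5A, and each was fixed 24 h later. The residues changed in the mutant, the promoter on the vector and the share of cells that took it up are not stated in the sources used here. Each group had 1 H3K4me3 library, so no difference below has a replicate check, no p-value is given, and regions are not replicates of a condition. The mark was measured over a population of cells, in which fewer cells with the mark and less mark per cell cannot be told apart.

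The libraries held 10713020 (empty vector), 10852412 (wild-type KDM5A) and 9906507 (mutant KDM5A) reads, and values are in RPM, the reads of a region scaled to library size. Inside the KDM5A gene on chromosome 12, 20 narrow listed regions together had 4.01 RPM in empty vector cells, 396 RPM where wild-type KDM5A was transfected and 487 RPM where the mutant was. Whether those reads came from the chromosome or from the vector cannot be told apart, and none of these regions is a lone promoter-sized one. Lone regions took up 11.4% of all empty vector reads (95% interval by Wilson's method 11.42% to 11.45%), 10.3% of wild-type reads (10.28% to 10.32%) and 9.63% of mutant reads (9.607% to 9.644%). Intervals here and below cover counting error only. No lone region was without reads, and the lowest held 19, 19 and 10 reads in the same order.

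The start regions of 6 genes in lone regions are shown because the results below turn on them: WNT5A, HUNK, CDH2 and PCDH9 had well under the empty vector level in both KDM5A libraries, and RAN and CCT2, which are used in nearly all cells, were close to it. Each sequence is the 250 bases before the gene's start in RefSeq (GRCh38.p14), 5′ to 3′ on the gene's strand. Capitals mark CCGCCC or its reverse complement GGGCGG, searched on both strands with overlapping matches counted. The positions are chr3:55487307-55487556 on the minus strand for WNT5A, chr21:31872770-31873019 on the plus strand for HUNK, chr18:28177131-28177380 on the minus strand for CDH2, chr13:67230337-67230586 on the minus strand for PCDH9, chr12:130871816-130872065 on the plus strand for RAN and chr12:69585209-69585458 on the plus strand for CCT2. This build is not the one of the listed regions, and the sequences were matched by gene symbol.
WNT5A: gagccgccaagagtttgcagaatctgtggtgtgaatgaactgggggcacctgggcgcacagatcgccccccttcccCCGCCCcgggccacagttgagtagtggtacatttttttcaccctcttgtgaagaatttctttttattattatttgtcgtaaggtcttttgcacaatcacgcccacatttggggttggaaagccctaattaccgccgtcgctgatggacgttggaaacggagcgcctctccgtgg
HUNK: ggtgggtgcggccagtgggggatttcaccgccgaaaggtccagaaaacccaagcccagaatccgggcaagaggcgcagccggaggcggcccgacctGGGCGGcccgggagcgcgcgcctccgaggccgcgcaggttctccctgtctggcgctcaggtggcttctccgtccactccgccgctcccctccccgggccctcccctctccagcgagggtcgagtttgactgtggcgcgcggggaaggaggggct
CDH2: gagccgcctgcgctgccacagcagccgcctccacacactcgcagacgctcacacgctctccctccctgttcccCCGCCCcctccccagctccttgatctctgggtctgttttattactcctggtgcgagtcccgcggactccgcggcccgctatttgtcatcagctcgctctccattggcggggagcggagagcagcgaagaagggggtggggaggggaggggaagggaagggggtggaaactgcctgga
PCDH9: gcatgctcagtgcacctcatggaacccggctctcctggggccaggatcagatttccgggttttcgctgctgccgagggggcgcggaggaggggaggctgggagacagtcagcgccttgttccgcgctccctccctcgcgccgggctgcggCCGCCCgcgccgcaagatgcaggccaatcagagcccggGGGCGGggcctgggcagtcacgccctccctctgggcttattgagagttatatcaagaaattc
RAN: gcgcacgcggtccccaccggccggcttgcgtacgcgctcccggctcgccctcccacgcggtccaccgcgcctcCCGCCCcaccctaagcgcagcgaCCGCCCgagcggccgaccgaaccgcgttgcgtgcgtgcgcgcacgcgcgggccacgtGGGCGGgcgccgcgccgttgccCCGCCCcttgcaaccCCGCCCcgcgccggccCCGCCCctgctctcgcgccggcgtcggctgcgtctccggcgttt
CCT2: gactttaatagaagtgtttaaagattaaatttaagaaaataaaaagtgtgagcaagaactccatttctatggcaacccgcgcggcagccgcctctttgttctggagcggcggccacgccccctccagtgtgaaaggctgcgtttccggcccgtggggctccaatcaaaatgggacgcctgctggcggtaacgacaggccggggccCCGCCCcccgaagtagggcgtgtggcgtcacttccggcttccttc
The letters occurred once in WNT5A, HUNK, CDH2 and CCT2, at 2 places in PCDH9 and at 6 in RAN. The CpG dinucleotides numbered 14, 26, 17 and 20 in WNT5A, HUNK, CDH2 and PCDH9, and 51 and 19 in RAN and CCT2. The RefSeq table held 62 of the 87 named genes, and 39 of the 62 carried the letters, beside 42.6% of all 35116 promoters of the table in windows of the same length. Among the gene lists described below, 9 of 16 promoters of adhesion and guidance genes, 7 of 14 of developmental transcription factors, 4 of 6 of signalling genes and 3 of 7 of housekeeping genes held them. The median number of CpG was 17, 20.5, 16 and 19 in the same order, against 11 over all promoters of the table. Of the 19 promoters of named genes outside the lists, 16 held the letters, and their median was 31 CpG. Most of those genes were named for their ratio or level in these data. The 39 of 62 is therefore not a share of lone regions in general. Windows were matched by gene symbol and not by position, so a window need not lie at the lone region of its gene. That of NRXN3 does not, judged by the shift between the builds seen for BCL11B on the same chromosome. A match to the letters is a description of the window and not a measured binding site.

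The lone regions had a median width of 2652 bp (quartiles 2300 and 3074 bp) and covered 6.51 Mb. Their median gap was 182461 bp (quartiles 130194 and 314832 bp). The gap was 100 to 200 kb for 1326 of them, 200 to 500 kb for 727 and 500 kb or more for 336, of which 108 had 1 Mb or more to the nearest neighbour. Chromosomes differed in how many of their promoter-sized regions were lone. The share was 48.6% on chromosome 18, 41.6% on chromosome 13 and 39.7% on chromosome 4, but 11.4% on chromosome 17 and 5.62% on chromosome 19, which is dense in genes. At the limits of the rule, the narrowest region counted (chr8:10403993-10405992, 2000 bp) had 16.7, 16.1 and 16.96 RPM in the empty vector, wild-type and mutant library. The widest counted (chr11:75524261-75528256, 3996 bp) had 62.5, 56.6 and 56.9 RPM, and the one with the smallest gap (chr6:35994870-35997331, 100011 bp) had 63.0, 57.5 and 55.7 RPM. Just outside stood chr1:86860566-86862564 (1999 bp) with 41.6, 36.4 and 33.8 RPM, chr6:158243491-158247494 (4004 bp) with 71.6, 64.1 and 53.8 RPM, and chr6:3258658-3261629 (gap 99.8 kb) with 59.8, 55.8 and 50.6 RPM.

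Lone regions as a whole carried about as much mark as crowded ones, and the most isolated among them carried less. The median lone region stood at 48.3 RPM in empty vector cells (quartiles 36.0 and 61.6), 43.3 RPM with wild-type KDM5A (32.2 and 56.1) and 40.7 RPM with mutant KDM5A (30.2 and 52.1). Crowded regions had medians of 49.7, 44.9 and 41.9 RPM. By the mean of the 3 libraries, 60 lone regions were under 5 RPM, 258 were at 5 to 20 RPM, 647 at 20 to 40 RPM, 1350 at 40 to 80 RPM and 74 at 80 RPM or more. The share at 5 to 20 RPM was 10.8% among lone and 10.8% among crowded regions. Within the lone regions it was 8.52% at gaps of 100 to 200 kb, 11.7% at 200 to 500 kb and 17.9% at 500 kb or more, and the empty vector medians of these classes were 49.5, 48.3 and 41.6 RPM.

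The comparison of wild-type KDM5A with the empty vector asks what putting the demethylase back did to the mark at these isolated regions. Changes are log2 ratios after 0.7 RPM was added to both values, which understates the change of weak regions, and a region counts as lower or higher from 1.5-fold on this scale. The median lone region stood at −0.15 (quartiles −0.22 and −0.073), a change of −9.79%, and 2147 of the 2389 were below 0. At least 1.5-fold lower were 77 lone regions (3.22%) and 4 were higher, against 6.53% lower and 6.23% higher among all listed regions, most of which are weaker. Among crowded regions 31 were lower (0.467%) and 16 higher, around a median of −0.14. The 77 had library medians of 9.52 (empty vector), 4.699 (wild-type) and 4.54 RPM (mutant). They lay in the lower levels, with 27 under 5 RPM, 49 at 5 to 20 RPM and 1 above.

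With mutant KDM5A the lone regions stood lower still against the same empty vector library, which both comparisons share. The median was −0.25 (quartiles −0.33 and −0.16), a change of −15.6%, and 2298 of the 2389 were below 0. At least 1.5-fold lower were 107 (4.48%) and 3 were higher, against 8.15% and 6.61% of all listed regions. Crowded regions had a median of −0.23, with 71 lower (1.07%) and 17 higher. The 107 had medians of 9.99, 5.71 and 4.64 RPM with the empty vector, wild-type and mutant KDM5A, and 35 of them were under 5 RPM, 61 at 5 to 20 RPM and 11 above.

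The general downward shift rests on the scaling to total reads. Scaling each library to a median ratio of 1 over the listed regions at or above the median level adds 0.14 to the log2 values of wild-type and 0.24 to those of mutant KDM5A, which leaves lone medians of −0.0063 and −0.010. On that scale 55 lone regions were lower and 10 higher with wild-type KDM5A, and 73 lower and 9 higher with the mutant. Such a factor hardly moves the difference between the medians of 2 classes of region, but it does move the counts past 1.5-fold, so the counts on that scale are given beside the main ones below where they change by much.

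Lone regions differed from crowded ones where the mark was low. At 5 to 20 RPM, 49 of 258 lone regions (19%) were at least 1.5-fold lower with wild-type KDM5A, beside 17 of 717 crowded regions (2.37%) and 3.3% of all listed regions of that level. Their medians were −0.18 and −0.017. With mutant KDM5A 61 of the 258 (23.6%) were lower, beside 39 of the 717 (5.44%) and 6.63% of all listed regions of that level, with medians of −0.29 and −0.090. Under 5 RPM, 27 of 60 lone regions were lower with wild-type KDM5A (median −0.496) and 35 with the mutant (−0.76), beside 14 and 17 of 118 crowded regions (0.080 and −0.087). Of all listed regions under 5 RPM 11.9% and 13.9% were lower, and 11.9% and 12.7% were higher. Higher were also 6 and 8 of the 118 crowded regions and 3 and 3 of the 60 lone ones. These 60 ranged from 1.77 to 8.96 RPM in the empty vector library, 1.75 to 5.34 RPM in the wild-type and 1.01 to 5.86 RPM in the mutant one. From 20 RPM on the 2 classes had nearly the same medians, −0.146 lone and −0.149 crowded with wild-type KDM5A and −0.243 and −0.239 with the mutant.

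**Figure D1:**
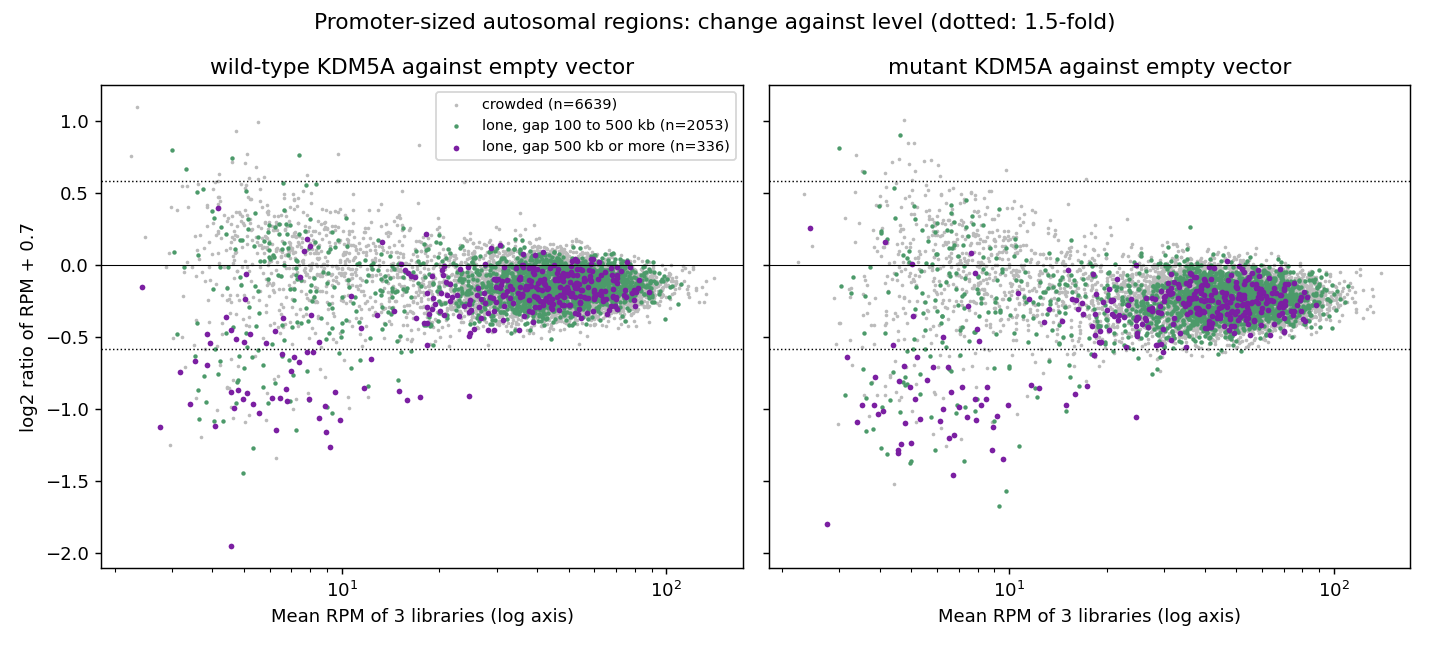
Each point is a promoter-sized autosomal region, with its mean RPM over the 3 libraries on a log axis and its log2 ratio to the empty vector on the vertical axis, for wild-type KDM5A on the left and mutant KDM5A on the right. Crowded regions are grey, lone regions green, and the 336 lone regions with a gap of 500 kb or more purple; dotted lines mark 1.5-fold. At 5 to 20 RPM 26 of 60 purple points lie below the lower dotted line on the left and 32 of 60 on the right, and above 20 RPM the colours overlap.

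The difference grew with isolation. At 5 to 20 RPM the share of regions at least 1.5-fold lower with wild-type KDM5A was 2.89%, 1.52% and 3.4% for crowded regions with gaps under 10 kb, of 10 to 50 kb and of 50 to 100 kb. Among lone regions it was 4.42% at 100 to 200 kb (5 of 113), 21.2% at 200 to 500 kb (18 of 85) and 43.3% at 500 kb or more (26 of 60). The medians of the last 3 classes were −0.089, −0.18 and −0.47. With mutant KDM5A the shares over the same 6 classes were 7.02%, 3.96%, 6.12%, 8.85%, 22.4% and 53.3%, and the median of the most isolated class was −0.63. By these shares lone regions with gaps of 100 to 200 kb were close to crowded ones. The shares were highest at 500 kb or more, and the class of 200 to 500 kb depended on the settings given next. The medians at 100 to 200 kb, −0.089 with wild-type and −0.20 with mutant KDM5A, lay below the −0.017 and −0.090 of crowded regions of that level. Under 5 RPM, 34.8% and 39.1% of the 23 lone regions with gaps of 100 to 200 kb were lower, beside 11.9% and 14.4% of crowded ones. At 20 RPM or more no gap class had over 0.778% of its regions lower in either comparison.

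**Figure D2:**
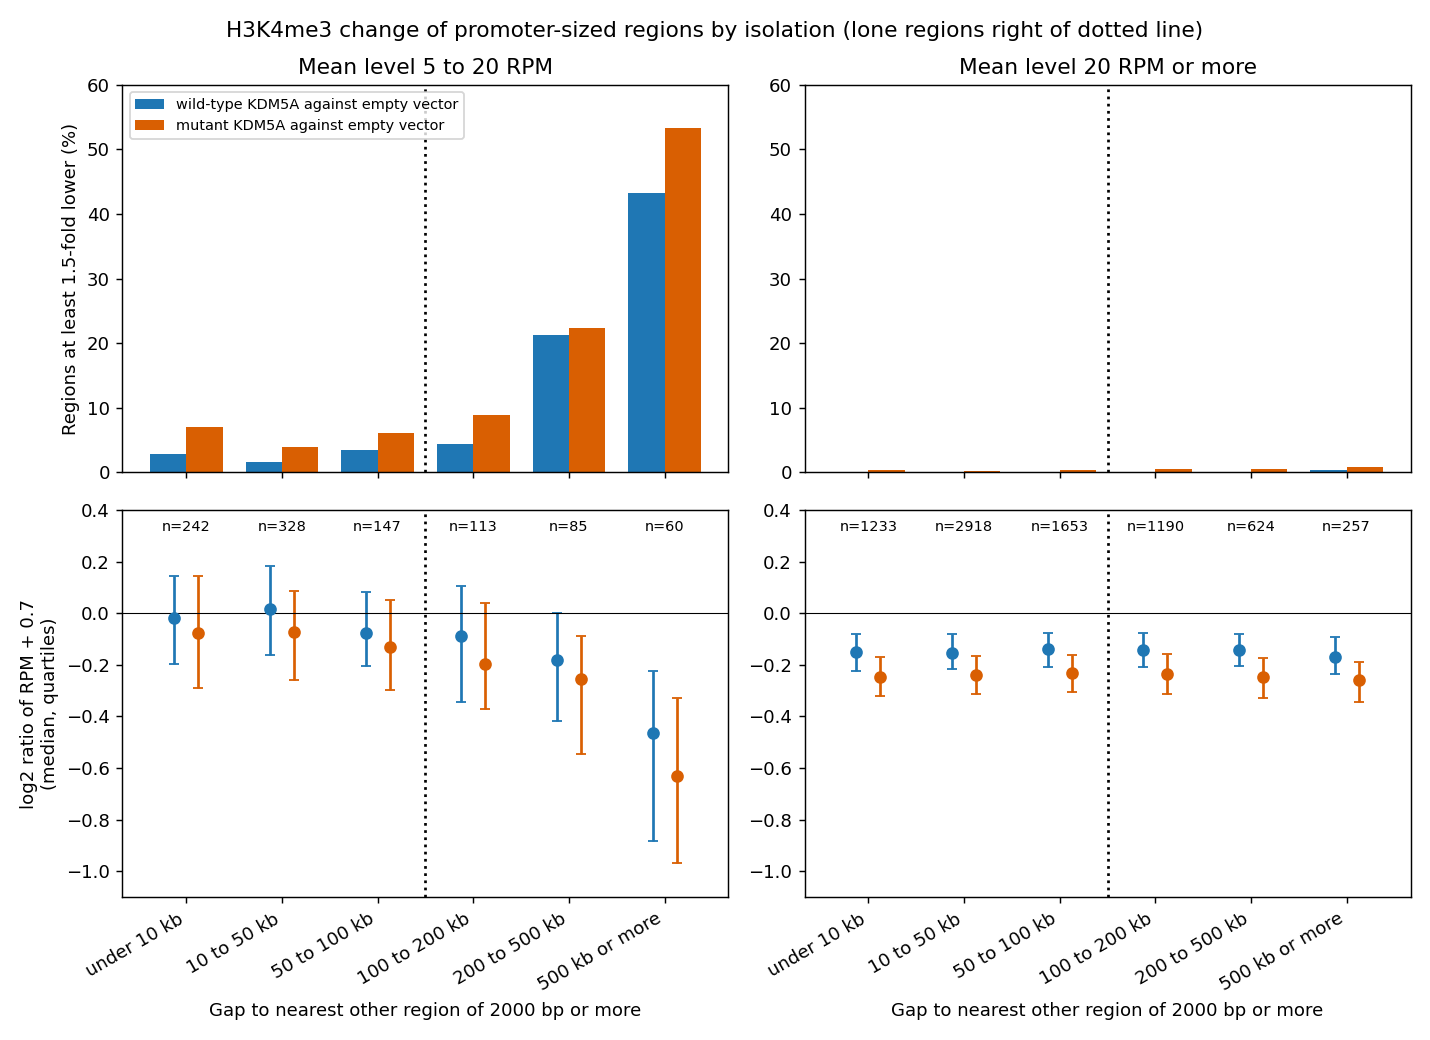
The upper panels show the percent of promoter-sized regions at least 1.5-fold lower than with the empty vector, and the lower panels the median log2 ratio with quartiles, by gap to the nearest other region of 2000 bp or more; blue is wild-type KDM5A, orange mutant KDM5A, and lone regions stand right of the dotted line. At a mean of 5 to 20 RPM (left) the share lower reaches 43.3% and 53.3% at gaps of 500 kb or more, while at 20 RPM or more (right) it stays under 1%.

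A level taken from the mean of all libraries contains the values that are compared, so the gap classes were also formed from the 1 library outside each comparison, an alternative added after the data were seen. At gaps of 500 kb or more, 17 of 59 regions (28.8%) with 5 to 20 RPM in the mutant library were lower with wild-type KDM5A, and the median was −0.32. For mutant KDM5A, 26 of 53 regions (49.1%) with 5 to 20 RPM in the wild-type library were lower, with a median of −0.54. At 200 to 500 kb the shares were 11.1% (9 of 81) and 18.7% (14 of 75), and at gaps under 10 kb 1.19% and 4.94%. With the median ratio set to 1, 20 and 27 of the 60 most isolated regions of 5 to 20 RPM were still lower, around medians of −0.34 and −0.41, while those with gaps of 100 to 200 kb had medians of 0.045 and 0.025. In the class of 200 to 500 kb that scaling took the lower regions from 18 to 9 and from 19 to 11 of 85, with medians of −0.043 and −0.031.

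Isolation went along with other features. No listed region narrower than 2000 bp lay within 100 kb of 619 of the 2389 lone regions, compared with 669 of the 6639 crowded ones. At 5 to 20 RPM, 30 of 83 lone regions without such narrow companions were lower with wild-type KDM5A and 36 with the mutant, at medians of −0.40 and −0.53. Of the 175 with companions, 19 and 25 were lower, at medians of −0.12 and −0.23. Wide lone regions of this level stood out too. Of the 16 that were 3500 bp wide or more 11 were lower in each comparison, with medians of −0.77 and −0.87, against 17 and 22 of 136 that were narrower than 2500 bp (−0.13 and −0.26). At 20 RPM or more the medians of the widest and narrowest class were −0.151 and −0.144 with wild-type and −0.252 and −0.241 with mutant KDM5A, and those without and with companions were −0.145 and −0.147 with wild-type KDM5A. The part that gap, companions and width each have in the result was not tested.

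The named genes show what stood alone. Of 57 genes of cell adhesion, axon guidance and synaptic surfaces, 20 were placed in a lone region, and all 20 were below 0 in both comparisons. Of all lone regions 89.9% and 96.2% were below 0 with wild-type and mutant KDM5A. At least 1.5-fold lower were 11 of the 20 with wild-type and 15 with mutant KDM5A, and none was higher. Over all lone regions 3.22% and 4.48% were lower. The list medians were −0.60 and −0.85, beside −0.15 and −0.25 over all lone regions. The 20 were also isolated, with a median gap of 1078 kb. At 5 to 20 RPM stood 13 of the 20, of which 9 and 11 were lower. The shares over all lone regions of that level were 19% and 23.6%, and 43.3% and 53.3% at gaps of 500 kb or more. The gene lists and the members were chosen with earlier results of these data known, so the lists are not independent evidence of a direction. After scaling to a median ratio of 1, 17 and 20 of the 20 were below 0, and 7 and 12 were lower. The calls that ended there were CADM1, GPC6, SLIT2 and TENM4 with wild-type KDM5A and NLGN1, NRXN3 and UNC5C with the mutant.

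Among adhesion molecules, CDH2 (N-cadherin, chr18:25755123-25758513) had 15.3 RPM in empty vector cells and 6.91 and 7.47 RPM with wild-type and mutant KDM5A. It was 2.22 times lower with wild-type KDM5A (95% interval 1.68 to 2.95) and 2.05 times lower with the mutant (1.55 to 2.74), so both KDM5A libraries lay together and well under the empty vector. PCDH10, a protocadherin (chr4:134071343-134074323), had 8.77, 1.75 and 3.13 RPM and was 5.01 times lower with wild-type KDM5A (3.04 to 8.69). PCDH9, another protocadherin, stood 4633 kb from its neighbour (chr13:67803097-67805675) and had 22.2, 11.8 and 11 RPM. SLITRK5, a membrane protein of neurite outgrowth with a gap of 3672 kb (chr13:88323431-88327005), had 23.5, 11.98 and 12.3 RPM. CADM1, an immunoglobulin-type adhesion molecule (chr11:115373144-115375865), had 9.71, 6.08 and 3.84 RPM. These 5 thus had less mark in both KDM5A libraries, and in CADM1 the mutant library was the lowest.

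Among guidance receptors and ligands, EPHA7, an ephrin receptor (chr6:94126145-94130079), had 14.3 RPM in empty vector cells and 6.91 and 5.45 RPM with wild-type and mutant KDM5A. The netrin receptor UNC5C had 7.84, 5.16 and 4.54 RPM and the ROBO ligand SLIT2 22.4, 14.6 and 12.2 RPM. The secreted semaphorins SEMA3A, SEMA3C and SEMA3D, their receptor NRP1 and the ephrin receptor EPHA4 were the 5 of the list not 1.5-fold lower with mutant KDM5A. They also had strong marks for this list. EPHA4, NRP1 and SEMA3C were its 3 regions at 20 RPM or more, and SEMA3A and SEMA3D had means of 18.3 and 19 RPM. With the median ratio set to 1, UNC5C, NRXN3 and NLGN1 were not past 1.5-fold with the mutant either. SEMA3C, for example, had 24.8, 24.3 and 20.4 RPM. Of the synaptic and teneurin genes, the latrophilins ADGRL2 and ADGRL3 had 12.9, 5.81 and 6.86 RPM and 7.47, 3.59 and 3.84 RPM. TENM4 had 11.01, 7.003 and 5.45 RPM. NRXN3 and NLGN1, which code for partners across the synapse, had 6.35, 4.24 and 3.63 RPM and 22.96, 17.2 and 14.6 RPM, past 1.5-fold with the mutant only; whether the 2 forms of KDM5A differ there was not tested.

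Of 71 developmental transcription factors and cofactors, 22 were placed in a lone region. At least 1.5-fold lower were 7 with wild-type and 8 with mutant KDM5A and none was higher, beside 3.22% and 4.48% of all lone regions. The list medians were −0.34 and −0.52, beside −0.15 and −0.25 over all lone regions, and its median gap was 391 kb. After scaling to a median ratio of 1, 6 and 7 were lower, without MAF for wild-type and BCL11B for mutant KDM5A. The list split by level, since 5 of its 9 regions at 5 to 20 RPM were lower in each comparison (19% and 23.6% of all lone regions of that level), but 1 and 2 of its 11 regions at 20 RPM or more.

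SALL1, a zinc finger factor of kidney and limb development (chr16:51183386-51187250), had 15.96 RPM in empty vector cells and 7.46 and 4.54 RPM with wild-type and mutant KDM5A, and was 2.14 times lower (1.63 to 2.82) and 3.51 times lower (2.52 to 4.995). LHX8, a LIM homeobox factor (chr1:75600267-75603026), had 8.96, 2.86 and 3.03 RPM. Both had less mark in both KDM5A libraries, as did SOX5 with 8.40, 3.96 and 3.63 RPM, MEIS1 with 9.99, 4.15 and 4.64 RPM, and MAF with 10.8, 6.54 and 4.85 RPM. TLE4, a Groucho-type corepressor 1271 kb from its neighbour (chr9:82185140-82189116), was the 1 lone region at 20 RPM or more that was past 1.5-fold lower with wild-type KDM5A, and had 37.1, 19.4 and 17.5 RPM. SOX9, a factor of intestinal crypt cells (chr17:70115787-70119065), was among the 10 lone regions with the highest RPM per kb, and its 122 RPM with the empty vector compared with 101 and 102 RPM. PITX1, ZFHX4 and ID4 also stayed within 1.5-fold. ID4 was the 1 member of the list above 0 with wild-type KDM5A, at 38.4 against 38.6 RPM, and had 30.2 RPM with the mutant.

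Of 42 secreted signals, receptors and feedback inhibitors, 9 were placed, and WNT5A was the 1 that was lower. Of all lone regions 3.22% and 4.48% were lower with wild-type and mutant KDM5A. WNT5A, a ligand of the noncanonical Wnt pathway (chr3:55519408-55522435, gap 1068 kb), had 10.9 RPM in empty vector cells and 5.71 and 3.53 RPM with wild-type and mutant KDM5A. It was 1.91 times lower (1.39 to 2.65) and 3.09 times lower (2.10 to 4.65). The other 8 stayed within 1.5-fold in both comparisons, and the median gap was 612 kb over all 9. By level, 7 of the 9 had 20 RPM or more, while WNT5A and LGR5 had 5 to 20 RPM. At 20 RPM or more, 1 of 2071 lone regions was lower with wild-type and 11 with mutant KDM5A. The Wnt antagonist DKK1 had 70.1, 61.7 and 56.3 RPM, the BMP antagonist NOG 73.5, 61.7 and 53.6 RPM, and the receptor TGFBR2 61.9, 57.8 and 55.3 RPM. LGR5, the R-spondin receptor of intestinal stem cells, had 18.7, 14.8 and 13.1 RPM. The list medians were −0.17 and −0.31, and after scaling to a median ratio of 1 they were −0.027 and −0.075.

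Housekeeping genes in lone regions had strong marks. Of 28 entries of that list 8 were placed in a lone region, none was past 1.5-fold, and their medians were −0.14 and −0.18, beside −0.15 and −0.25 over all lone regions. All 8 had 20 RPM or more, a level at which 1 of 2071 lone regions was lower with wild-type and 11 with mutant KDM5A. Their median gap was 117 kb and their median level 64.0 RPM with the empty vector. RAN, the GTPase of nuclear transport (chr12:131355140-131358570), had 62.8, 53.4 and 56.2 RPM in spite of a gap of 836 kb. CCT2, a chaperonin subunit (chr12:69978714-69980810), had 45.1, 43.5 and 42.2 RPM. After scaling to a median ratio of 1 the list medians turned positive, 0.0039 and 0.058.

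**Figure D3:**
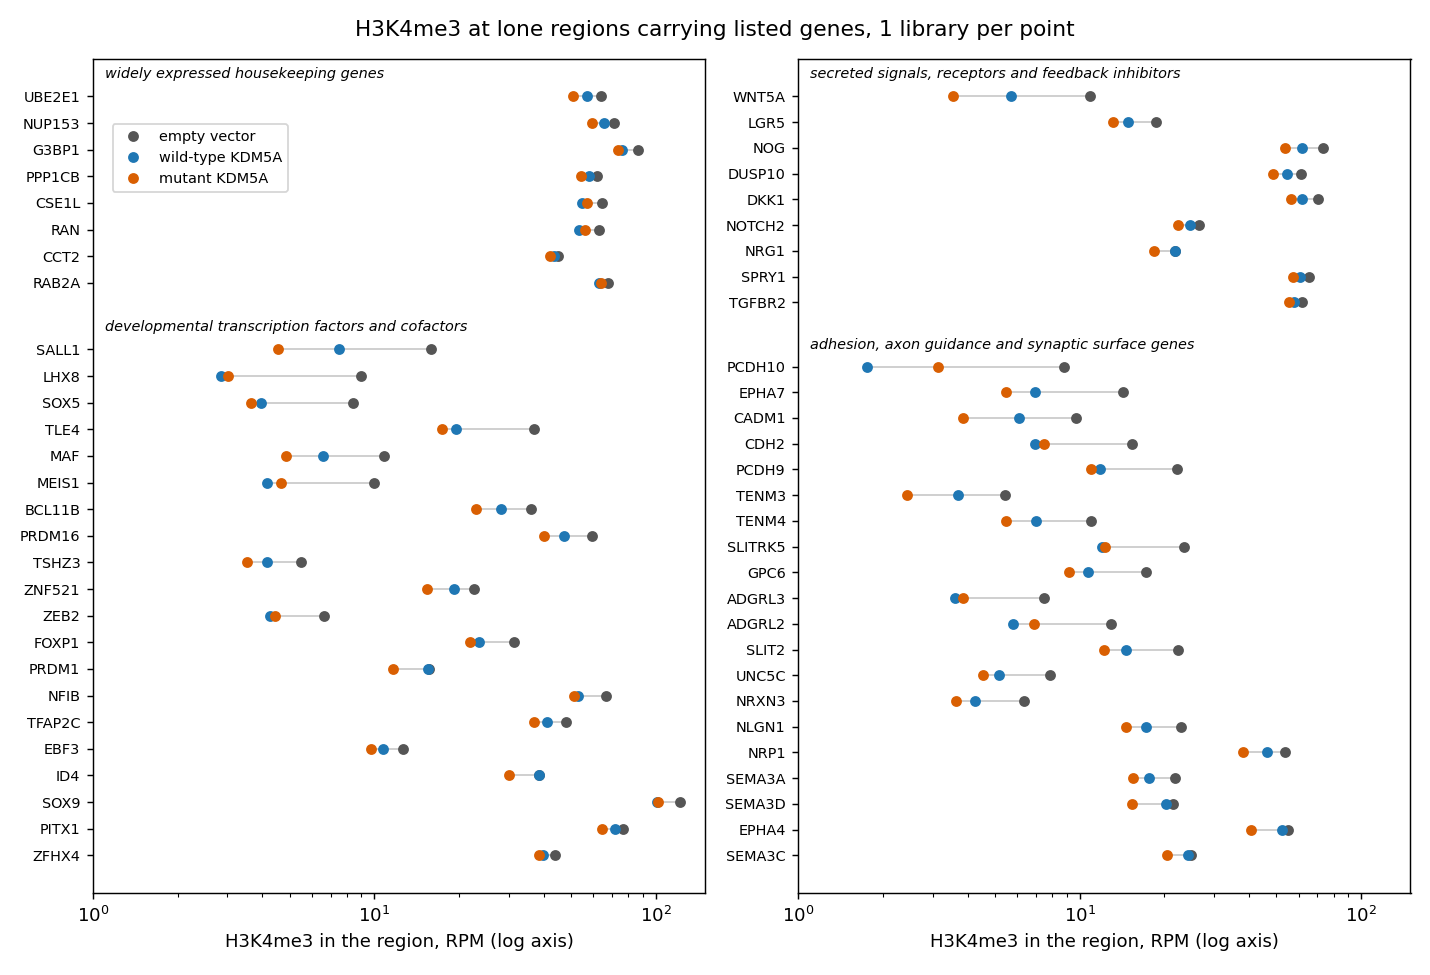
RPM of the lone regions placed with the listed genes reported here, on a log axis, with 1 point per library (grey empty vector, blue wild-type KDM5A, orange mutant KDM5A) and a line from the lowest to the highest. Adhesion genes and many transcription factors under 20 RPM spread widely, as in SALL1 with 15.96 to 4.54 RPM, while the housekeeping points nearly coincide.

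**Figure D4:**
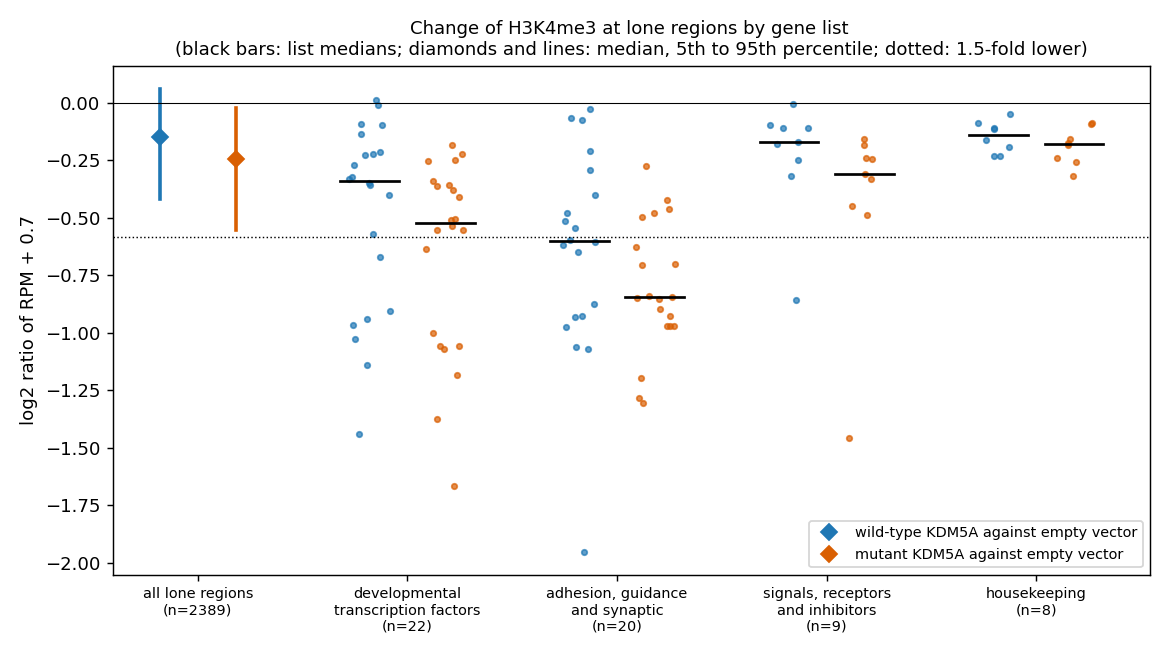
Log2 ratio to the empty vector of each listed lone region (dots) with the list median (black bar), beside the median and 5th to 95th percentile of all 2389 lone regions (diamonds and lines); blue is wild-type and orange mutant KDM5A, and the dotted line is 1.5-fold lower. The adhesion list has medians of −0.60 and −0.85, and the housekeeping list −0.14 and −0.18.

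The lone regions with the lowest ratios at 5 RPM or more held further genes outside the lists, named because of these values. HUNK, a protein kinase of the SNF1 family (chr21:33244760-33246880), had 15.1, 9.68 and 4.64 RPM and was 3.26 times lower with mutant KDM5A (2.33 to 4.62). The homeobox gene EN1 had 12.2, 5.16 and 4.34 RPM, and ASXL3, of a family of Polycomb-associated proteins, had 14.9, 5.81 and 6.86 RPM. AUTS2, a gene of neurodevelopment, had 14.5, 6.08 and 6.26 RPM, and the phosphodiesterase PDE10A had 15.2, 7.93 and 5.55 RPM. EYA4, a transcriptional coactivator with a phosphatase domain, had 16.2, 9.58 and 6.36 RPM, and SDK2, an adhesion molecule of the retina, 9.61, 4.61 and 3.53 RPM. PKDCC, a secreted kinase, had 8.31, 3.04 and 4.64 RPM. In each of these 8 the empty vector library was the highest of the 3. The scaling to a median ratio of 1 ended the calls of HUNK and EYA4 with wild-type and of PKDCC with mutant KDM5A. The intervals of regions picked in this way do not allow for the choice of extremes.

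With mutant KDM5A 1.24% of lone regions at 20 to 40 RPM were at least 1.5-fold lower, near the 1.03% of all listed regions of that level. At 40 to 80 RPM the shares were 0.222% and 0.0833%. At 20 RPM or more 11 lone regions were lower in all. Besides TLE4 they included BCL11B, a zinc finger factor of T cells, with 36.1, 28.2 and 23.02 RPM, ATOH8, a helix-loop-helix factor, with 34.4, 30.3 and 20.6 RPM, and RGS17, a regulator of G protein signalling, with 31.4, 23.5 and 19.8 RPM. The ETS factor ETV1 had 35.9, 29.95 and 23.4 RPM, the histone demethylase PHF2 64.5, 48.7 and 42.4 RPM and the glutamate receptor GRM8 29.1, 24.1 and 19.2 RPM. In all of these the wild-type library lay between the other 2. After scaling to a median ratio of 1, TLE4 was still past 1.5-fold, and BCL11B, ATOH8, RGS17, ETV1, PHF2 and GRM8 were not.

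Mutant against wild-type KDM5A asks whether the 2 forms left different levels. The median lone region was at −0.098, a change of −6.58%, and 14 were at least 1.5-fold lower (0.586%) and 1 was higher, against 5.45% and 5.19% of all listed regions. Crowded regions had a median of −0.088 with 21 lower and 4 higher. At 5 to 20 RPM the medians were −0.10 for lone and −0.080 for crowded regions, a much smaller difference than against the empty vector. At that level 8 of 258 lone regions (3.1%) and 6 of 717 crowded ones (0.837%) were lower, beside 1.89% of all listed regions. HUNK was the lowest, at 9.68 against 4.64 RPM, 2.08 times lower with the mutant. SALL1, WNT5A, CACNA2D3 (a calcium channel subunit, 7.37 against 4.64 RPM) and ADAMTS2 (a procollagen peptidase, 16.8 against 10.7 RPM) were also past 1.5-fold. The 1 higher region was PCDH10, at 1.75 against 3.13 RPM. Scaling to a median ratio of 1 left 4 lower and 2 higher. HUNK was among the 4, while SALL1 (−0.56), WNT5A (−0.53), CACNA2D3 (−0.52) and ADAMTS2 (−0.53) were no longer past 1.5-fold.

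On the scaling to total reads, few lone regions had more mark with KDM5A than with the empty vector. At 5 RPM or more the 1 region past 1.5-fold was chr17:75466458-75468562, at 5.51 RPM in empty vector cells and 9.86 and 6.76 RPM with wild-type and mutant KDM5A, and no region of that level was past it with the mutant. It had 2 narrow regions within 100 kb and a gap of 145 kb. With the median ratio set to 1, 1255 and 1277 of the 2389 lone regions were below 0 with wild-type and mutant KDM5A. On that scale 10 and 9 were at least 1.5-fold higher. Some regions with very large gaps stood within 1.5-fold. SPOPL, an adaptor of a ubiquitin ligase 2381 kb from its neighbour (chr2:139258105-139261395), had 82.1, 81.3 and 67.6 RPM. The largest gap of all, 5063 kb, belonged to chr9:43684267-43686917 at CNTNAP3B, whose sequence is repeated on chromosome 9 so that reads may be shared with its copies, and it had 11.8, 10.0 and 10.2 RPM. The lone regions with the most RPM per kb, up to 34.97, lay at genes such as PTK2, MTDH and EDRF1, and each of the 10 was within 1.5-fold in all comparisons.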

How the data were processed

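H3K4me3 was measured by ChIP-seq in 3 libraries, 1 for each transfection. The input and IgG samples of the series were not analysed here, and no background was subtracted. The deposited table gives RPM per region, which the authors scaled to each library's total reads. Per the submitters' processing notes, the tools were deepTools 3.5.6, HOMER, MACS, MACS2 and Bowtie2 2.5.4, and the build was hg19. How peaks were called and merged is not given in the sources used here, and a mark lost from 1 library alone can still be listed through another. H3K4me4 in 1 column header (empty vector) was taken as a misprint of H3K4me3. No spike-in is named, so a loss of the mark everywhere cannot be told apart from less efficient enrichment.

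RPM values were whole multiples of 1 read (0.0933, 0.0921 and 0.101 RPM for the empty vector, wild-type and mutant KDM5A), within 0.02 reads for 100% of regions. The recovered reads gave exact conditional (Clopper-Pearson) 95% intervals for plain RPM ratios and Wilson intervals for shares. A count of 0 allows 3 reads (0.280, 0.276 and 0.303 RPM). PCR copies are not independent molecules, so the intervals cover counting error only. No count model was fitted, since each group has 1 library.

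Gaps were computed between region ends. Log2 ratios used a pseudocount of 0.7 RPM, with 1.5-fold as threshold. Starts are given 1-based. Named were, at 5 RPM or more, the 10 lowest and 5 highest ratios of each comparison, the 10 highest by RPM per kb, the 5 largest gaps, the regions next to the limits, and the listed genes whose hg19 position was known. Some genes that this rule names are not reported here, though the list counts and medians include them. Strong regions named as lower with the mutant were chosen after their values were seen. All 87 named genes lie on the same chromosome in the RefSeq gene table (GRCh38.p14), and all 67 neighbouring pairs in the same order. The members and lists were chosen with earlier results of these data known. The scripts were checked on simulated data. Scripts ran under scipy 1.17.1, pandas 2.3.3, numpy 2.4.6, matplotlib 3.10.9 and Python 3.11.15.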

Additional observations from a re-analysis of the deposited data

How the results depend on the processing

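With 1 library per group, nothing here separates a condition from its library, and depth limits single regions under 5 RPM most. Of 117 alternative values, 59 stayed within the margin of the reported value, 57 moved and 1 turned its sign. No paired analysis was possible because each group has 1 library, and for the same reason there was no replicate to leave out. The cause of the moves below was not tested, unless the setting itself removes regions.

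The pseudocount of 3.5 RPM gave lone medians of −0.14, −0.23 and −0.091 for wild-type KDM5A, mutant KDM5A and mutant against wild-type. It left 45, 67 and 1 lone regions lower and 0, 0 and 0 higher in the same order. With 0.07 RPM 9 were higher with wild-type KDM5A and 2 for mutant against wild-type. Scaling to a median ratio of 1 gave medians of −0.0063, −0.010 and −0.0053, with 10, 9 and 2 higher and, for mutant against wild-type, 4 lower. Scaling to equal sums gave −0.0077, −0.014 and −0.0082, with 10, 9 and 2 higher and 6 lower. Without regions under 5 RPM, 50 were lower with wild-type KDM5A and 8 for mutant against wild-type, and 1, 0 and 0 were higher.

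A gap of at least 50 kb gave a median of −0.24 for mutant KDM5A and 9, 6 and 3 higher regions. A gap of at least 200 kb gave medians of −0.16 and −0.26 for wild-type and mutant KDM5A, 1 higher with wild-type KDM5A and 9 lower for mutant against wild-type. The difference of lone minus crowded medians at 5 to 20 RPM, −0.17 with wild-type and −0.20 with mutant KDM5A as reported, was then −0.28 and −0.31. Counting neighbours from 1000 bp on gave differences of −0.26 and −0.30, 1 higher with wild-type and 1 with mutant KDM5A, and 9 lower for mutant against wild-type. At 20 RPM or more the difference vanished, with −0.0044 for the mutant and a reversed sign for wild-type KDM5A (0.0034). A width of 2500 bp to under 3500 bp left 26, 41 and 5 lower, and 2 and 1 higher with wild-type and mutant KDM5A. A 2-fold threshold left 16, 39 and 0 lower and 0, 0 and 0 higher. With the level class from the library outside the comparison, added after the data were seen, the differences at 5 to 20 RPM were −0.14 and −0.17.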
